A study of Mus musculus with 6 samples.

Results

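The 40 genes described here are named glycolysis and hypoxia-inducible factor (HIF) genes, chosen by symbol from the 18341 genes of a table of monocyte RNA-seq. They comprise 22 genes of glucose uptake, glycolysis and lactate export, 17 other targets of HIF, and Hif1a itself. Each symbol was found in the table, and 39 passed the filter of a mean of 1 CPM (reads scaled to a common library total) that a gene needed to be tested. The exception was Car12, a membrane carbonic anhydrase gene, with means of 0.127 scaled CPM in BAFF tumours and 0.129 in controls, an estimated 8 reads at most in a library.

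The libraries came from monocytes sorted from subcutaneous tumours in C57BL/6 mice 13 days after injection of tumour cells. Tumours grown from cells that overexpress BAFF, the B cell activating factor, gave 3 libraries, and tumours of control cells gave the other 3. The source label of each sample names B16.F10, a pigmented mouse melanoma line, whereas the design text speaks of monocytes sorted out of tumours. That text is followed here. The sources used here do not give the sex and age of the mice, the sort markers, the vector of the control cells, or whether each library came from its own mouse. The p-values therefore measure the spread between these libraries, which may be technical. The BAFF gene Tnfsf13b was scarce in the sorted cells, where overexpression by the tumour cells need not show (1.28 ± 0.529 against 1.61 ± 0.826 scaled CPM, SD, n = 3; log2 fold change -0.17, limma adjusted p = 0.711), so the labels were not checked by it.

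Glycolysis turns glucose into pyruvate in the cytosol. Glucose enters through GLUT transporters, is trapped by hexokinase and committed by phosphofructokinase, and the pyruvate can be reduced to lactate, which leaves through a monocarboxylate transporter. HIF-1 is a transcription factor made of an oxygen-regulated alpha subunit, encoded by Hif1a, and a constitutive partner. In oxygenated cells the EGLN prolyl hydroxylases mark the alpha subunit for destruction, so that much of its control lies in protein stability, which RNA does not show. HIF-1 binds the core letters ACGTG or GCGTG and raises glycolytic genes together with genes of mitophagy, pH control, collagen folding and feedback, and myeloid cells rely on it in inflamed and oxygen-poor tissue.

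Promoter windows, 250 bases before to 50 bases after a transcript's start, were taken from RefSeq (GRCm38.p6), in a table where 37 of the 40 members were matched. Slc2a3, Bnip3l and Ndrg1 were not matched. ACGTG or GCGTG, searched on both strands with overlaps counted, occurred in 33 of the 37 (89.2%), against 68.4% of the 8850 tested genes with a window and 46.7% of all 27025 genes in that source. ACGTG alone occurred in 70.3% of members and 30.1% of tested genes. Windows of the members also held more CG pairs, which both motifs contain. Taking each gene's window with the most, the median was 25, against 22 for tested genes and 8 for all genes. Among glycolysis genes 18 of 21 held either motif, and among other HIF targets 14 of 15. Genes with several windows counted once if any window matched. A match is a run of letters and not a measured binding site.

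The windows below belong to genes on which the results turn, with both motifs in capitals on either strand. Slc2a1 (chr4:119108495-119108794, plus strand), Slc16a3 (chr11:120948817-120949116, plus strand), Pfkp (chr13:6648722-6649021, minus strand) and Hif1a (chr12:73907617-73907916, plus strand) were higher in BAFF tumour libraries. Car9 (chr4:43506776-43507075, plus strand) and P4ha2 (chr11:54100674-54100973, plus strand) were lower. Ldha, of which the first of 2 windows is shown (chr7:46845554-46845853, plus strand), did not pass the test, and its window held the most motif starts of the windows shown here (7).
Slc2a1: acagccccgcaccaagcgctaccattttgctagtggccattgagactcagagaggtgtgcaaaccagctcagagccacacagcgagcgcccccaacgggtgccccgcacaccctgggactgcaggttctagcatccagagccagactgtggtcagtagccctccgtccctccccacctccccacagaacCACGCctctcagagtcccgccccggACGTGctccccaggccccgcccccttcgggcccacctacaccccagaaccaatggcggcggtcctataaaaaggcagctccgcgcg
Slc16a3: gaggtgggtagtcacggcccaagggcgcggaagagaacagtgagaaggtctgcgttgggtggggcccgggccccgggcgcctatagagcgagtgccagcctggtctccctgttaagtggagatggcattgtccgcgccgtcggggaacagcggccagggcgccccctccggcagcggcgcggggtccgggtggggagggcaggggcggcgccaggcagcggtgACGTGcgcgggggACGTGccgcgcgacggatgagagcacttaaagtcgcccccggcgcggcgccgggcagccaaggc
Pfkp: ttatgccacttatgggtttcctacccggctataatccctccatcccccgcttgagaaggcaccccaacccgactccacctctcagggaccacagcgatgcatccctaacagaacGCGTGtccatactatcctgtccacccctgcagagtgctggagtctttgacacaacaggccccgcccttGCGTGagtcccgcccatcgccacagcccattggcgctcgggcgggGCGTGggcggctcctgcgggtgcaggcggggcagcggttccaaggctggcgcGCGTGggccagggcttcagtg
Hif1a: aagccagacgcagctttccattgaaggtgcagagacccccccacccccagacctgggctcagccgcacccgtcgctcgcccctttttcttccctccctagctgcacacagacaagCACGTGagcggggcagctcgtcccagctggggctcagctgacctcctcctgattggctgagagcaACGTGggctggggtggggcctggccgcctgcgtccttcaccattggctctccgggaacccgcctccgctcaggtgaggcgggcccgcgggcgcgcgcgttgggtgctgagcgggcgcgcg
Car9: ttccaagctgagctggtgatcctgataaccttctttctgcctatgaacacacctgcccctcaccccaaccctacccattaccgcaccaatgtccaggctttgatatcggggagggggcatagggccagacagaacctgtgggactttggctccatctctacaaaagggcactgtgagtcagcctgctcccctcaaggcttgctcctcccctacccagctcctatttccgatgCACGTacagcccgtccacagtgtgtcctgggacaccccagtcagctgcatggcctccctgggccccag
P4ha2: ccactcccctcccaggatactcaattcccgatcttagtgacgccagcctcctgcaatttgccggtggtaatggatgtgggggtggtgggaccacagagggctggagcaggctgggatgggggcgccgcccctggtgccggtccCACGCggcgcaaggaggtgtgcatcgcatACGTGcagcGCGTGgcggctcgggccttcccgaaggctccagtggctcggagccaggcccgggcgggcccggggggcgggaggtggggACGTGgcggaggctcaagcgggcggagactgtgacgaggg
Ldha: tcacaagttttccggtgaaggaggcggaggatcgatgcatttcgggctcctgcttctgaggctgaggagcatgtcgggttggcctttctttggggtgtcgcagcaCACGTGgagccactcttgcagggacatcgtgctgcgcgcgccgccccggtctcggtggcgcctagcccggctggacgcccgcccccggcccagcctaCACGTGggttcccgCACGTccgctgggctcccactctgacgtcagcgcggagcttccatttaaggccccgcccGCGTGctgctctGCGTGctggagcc
So higher, lower and absent calls were each found among genes whose windows carry these letters. Of the members with a window that passed as higher, 11 of 11 held a motif, and of those that did not pass 20 of 23.

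Libraries differed in depth and in how much of the total the listed genes took. From the step between low values, 1 CPM stood for an estimated 4.72 to 27.6 reads, and 3 reads for 0.109 to 0.635 CPM, counting error only. The listed genes held 61.1% to 66.1% of the total in BAFF tumour libraries and 39.8% to 65.6% in controls. Control tumours 2 and 3 also carried 27016 and 43052 CPM of the ribosomal RNA gene CT010467.1, which is itself a listed gene and so lies inside that share. Because the listed share differed, CPM were divided by median-of-ratios size factors (0.67 to 1.27), and the results are called scaled CPM. Without them the median of all tested genes lay 0.23 higher in BAFF tumours on the log2 scale, against 0.01 with them. Such factors are built to bring this median near 0, so the second value is no check of them. Monocyte markers were abundant in each library (8 markers summed to 8517 to 9245 scaled CPM in BAFF tumours and 5788 to 7630.4 in controls; 2 passed as higher and 1 as lower).

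In BAFF tumour monocytes Hif1a, the glucose transporter gene Slc2a3 and the phosphofructokinase gene Pfkp were higher, and Car9 and P4ha2 were lower, and these 5 calls held in each of the 6 fits that left out 1 library. Of the 22 glycolysis genes, 5 rose, 0 fell and 17 did not pass (limma-trend on log2(scaled CPM + 1), Benjamini-Hochberg adjusted p under 0.05 over all tested genes). Of the 16 other HIF targets tested, 7 rose, 2 fell and 7 did not pass. Over all 12824 tested genes 7.18% were called higher and 9.91% lower, and the members called higher made 22.7% of the glycolysis genes and 43.8% of the other targets. The members called lower made 12.5% of the other targets, a share near that of all genes. Among the 16 glycolytic enzymes, leaving out transporters and regulators, 1 was called higher (6.25%), a share near that of all genes. Their log2 fold changes were small but mostly positive (14 of 16, median 0.16), where 6560 of the 12824 tested genes were positive. The median log2 fold change was 0.17 for glycolysis genes, 0.41 for other HIF targets and 0.01 for all tested genes, and the difference between both lists was not tested.

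The groups did not overlap, on scaled CPM, for 15 members that lay higher in BAFF tumours and 2 that lay lower, against 17.3% and 17.8% of all tested genes. The calls rested on few libraries. On scaled CPM BAFF tumour 1 was the highest of the 6 libraries in 12 of the 13 members that rose, and control tumour 1 the lowest in 12. Before scaling, control tumour 3 was instead the lowest library for each of the 13, so the order of the controls depends on the size factors. Without BAFF tumour 1, and likewise without control tumour 1, 5 of the 15 called members passed in the same direction (Slc2a3, Pfkp, Hif1a, Car9 and P4ha2, so none of the 7 other HIF targets that rose), where 11.9% and 13.8% of all genes passed, against 17.1% with all libraries. Without BAFF tumour 2 or 3, or control tumour 2 or 3, 10, 12, 13 and 11 of the 15 passed, and 10.5%, 14.2%, 13.2% and 14.1% of all genes did. With control tumours 2 and 3 both left out, 10 of the 15 members and 8.49% of genes passed. On the deposited scale, with no size factors, 3 members passed as higher (Slc2a3, Hif1a and Ddit4) and 0 as lower in limma, with 15 at an unadjusted p under 0.05, where 5.31% of genes passed (1.81% as higher and 3.5% as lower). Each of the 15 called members had the same direction on both scales.

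**Figure D1:**
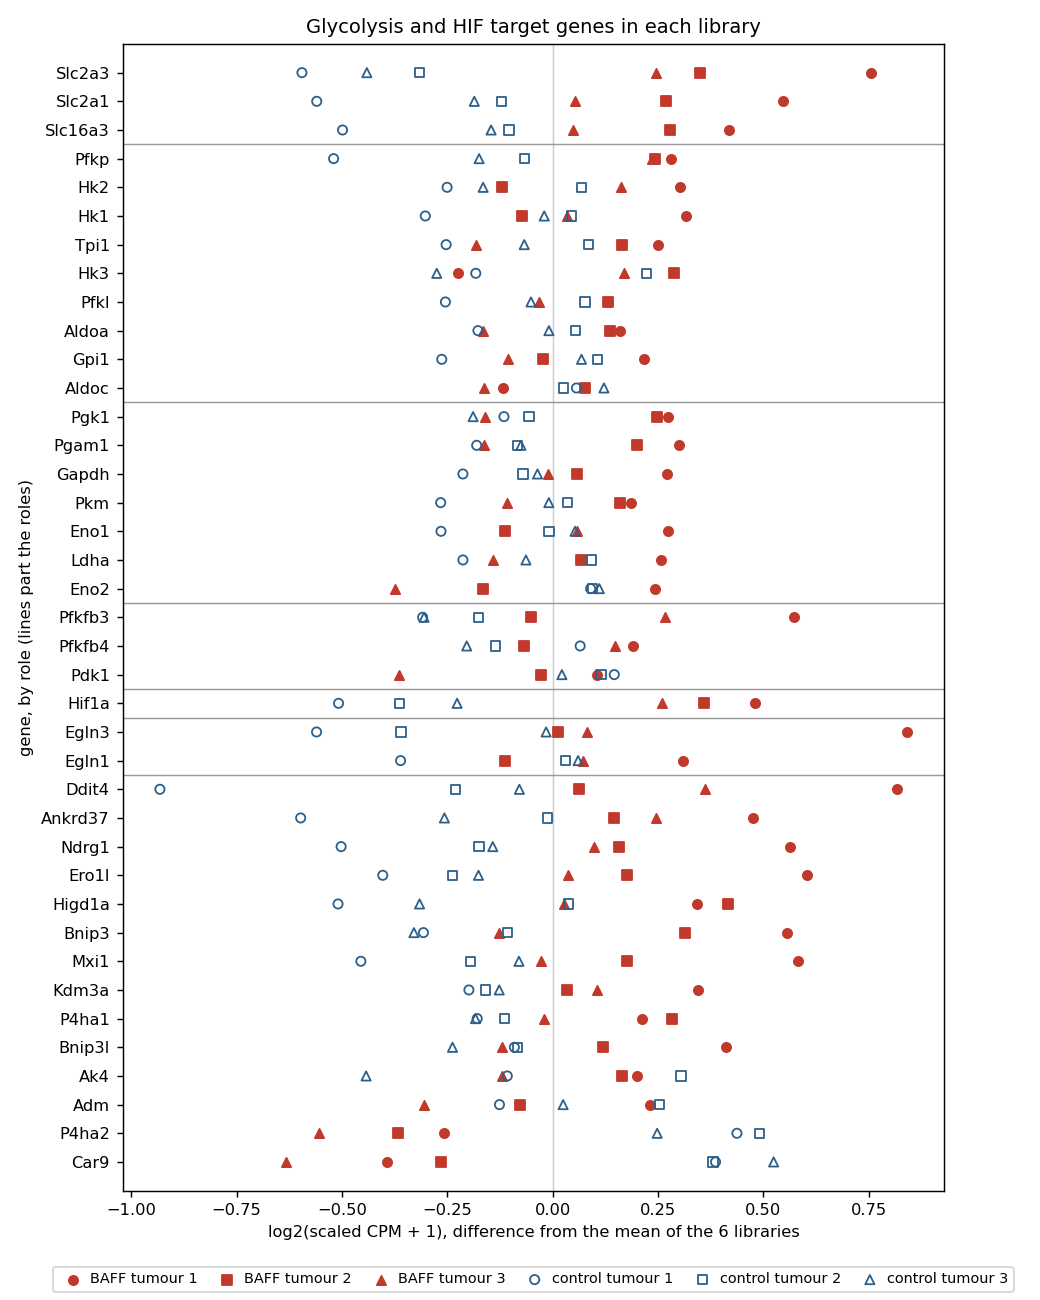
Level of each tested member in each library, as the difference of log2(scaled CPM + 1) from that gene's mean over the 6 libraries; filled red symbols are BAFF tumour libraries, open blue symbols control libraries, and lines part the roles. Red and blue separate for the transporters, Pfkp and Hif1a, mix for most enzymes, and change sides for P4ha2 and Car9 at the foot.

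All 3 transporter genes rose. Values in parentheses after a level are log2 fold changes, BAFF tumour against control, with their SE and limma's adjusted p. Slc2a1, which encodes the basal glucose transporter GLUT1, stood at 394, 325 and 279.6 scaled CPM in BAFF tumours 1, 2 and 3 and 183, 248 and 237 in control tumours 1, 2 and 3. The lowest BAFF tumour library lay above the highest control, with a change of 0.58 ± 0.15 on the log2 scale (SE; adjusted p = 0.0179 in limma). It no longer passed when BAFF tumour 1 or 2 or control tumour 1 was left out (largest adjusted p 0.0743). Slc2a3, the high-affinity transporter GLUT3, stood at 42.6, 31.9 and 29.6 scaled CPM in BAFF tumours 1, 2 and 3 and 16.1, 19.7 and 18 in control tumours 1, 2 and 3, and the groups lay far apart for their spread (0.90 ± 0.14, adjusted p = 0.00132). This was the largest rise among the members. Slc16a3 encodes MCT4, the lactate exporter of glycolytic cells. It stood at 334, 303 and 258 scaled CPM in BAFF tumours 1, 2 and 3 and 176, 232 and 225 in control tumours 1, 2 and 3, again without overlap (0.50 ± 0.13, adjusted p = 0.0219), and no longer passed when BAFF tumour 1 or 2 or control tumour 1 was left out (largest adjusted p 0.0905).

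Of the 9 genes from hexokinase to triose phosphate isomerase, 1 rose. Pfkp, the platelet-type phosphofructokinase that commits sugar to glycolysis, stood at 334, 325 and 323 scaled CPM in BAFF tumours 1, 2 and 3 and 191, 262 and 243 in control tumours 1, 2 and 3 (0.51 ± 0.12, adjusted p = 0.0129). The BAFF tumour libraries nearly coincided and lay above each control. A short stretch of its exons overlaps Pitrm1 on the opposite strand in GENCODE M21, and the kit does not mark strand. Pfkl, the liver-type enzyme of the same step, did not pass (164 ± 10.5 against 147 ± 16.9 scaled CPM, SD, n = 3; 0.15 ± 0.11, adjusted p = 0.377). The hexokinase genes Hk1 (96.3 ± 13.9 against 84.5 ± 10.6 scaled CPM), Hk2 (219 ± 31.9 against 186 ± 21.8 scaled CPM) and Hk3 (209 ± 37.3 against 187 ± 36 scaled CPM) had log2 fold changes of 0.18, 0.23 and 0.16 and overlapped between groups (limma adjusted p = 0.36, 0.245 and 0.544).

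Aldoa, the main aldolase and by CPM the most abundant gene of this stretch, stood at 875, 861 and 698 scaled CPM in BAFF tumours 1, 2 and 3 and 692, 813 and 778 in control tumours 1, 2 and 3. Its groups overlapped, with a change of 0.09 ± 0.13 on the log2 scale (SE; adjusted p = 0.691 in limma). Gpi1, the glucose phosphate isomerase gene, and Tpi1, the triose phosphate isomerase gene, were at 0.06 ± 0.13 and 0.16 ± 0.14. The brain-type aldolase gene Aldoc was scarce (12.9 ± 1.25 against 14.3 ± 0.524 scaled CPM) and did not pass (adjusted p = 0.514). Aldoart1, a near-identical copy of Aldoa, was listed at 18.3 and 16.5 scaled CPM, so some Aldoa reads may be split.

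None of the 7 genes from glyceraldehyde phosphate dehydrogenase to lactate passed, where 7.18% of all tested genes were called higher and 9.91% lower. Their log2 fold changes ran from -0.20 to 0.24. In limma 0 of them had an unadjusted p under 0.05, against 3919 of the 12824 tested genes. Pkm, pyruvate kinase and the most abundant by CPM, stood at 1673, 1644 and 1365 scaled CPM in BAFF tumours 1, 2 and 3 and 1223, 1508 and 1462 in control tumours 1, 2 and 3 (0.16 ± 0.14, adjusted p = 0.484). BAFF tumour 3 fell within the range of the controls. Gapdh, often used as a reference gene, stood at 279, 241 and 229.8 scaled CPM in BAFF tumours 1, 2 and 3 and 199.6, 221 and 226 in control tumours 1, 2 and 3. Its groups did not overlap, yet the difference was small for its spread (0.21 ± 0.11, adjusted p = 0.202).

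Ldha, the lactate dehydrogenase subunit that favours lactate, stood at 819.6, 719 and 622 scaled CPM in BAFF tumours 1, 2 and 3 and 592, 732 and 656 in control tumours 1, 2 and 3 and overlapped (0.12 ± 0.13, adjusted p = 0.58). Pgk1, which makes the first ATP of the pathway, and Pgam1, the mutase gene, were at 0.24 ± 0.12, adjusted p = 0.21 and 0.23 ± 0.12, adjusted p = 0.248. Eno1, the main enolase gene, was at 0.15 ± 0.13, adjusted p = 0.478. Its copy Eno1b held 246 and 239 scaled CPM, against 371 and 334 for Eno1, so how reads were divided between these copies is uncertain. The neuronal enolase gene Eno2 was near the filter (1.82 ± 0.631 against 2.18 ± 0.0243 scaled CPM; adjusted p = 0.571). Processed pseudogenes of Gapdh, Pgk1 and other enzymes can also share reads with them.

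Of the 3 regulator genes, Pfkfb3 rose. It encodes the enzyme that makes fructose 2,6-bisphosphate, the activator of phosphofructokinase, and stood at 215, 139 and 174 scaled CPM in BAFF tumours 1, 2 and 3 and 116, 128 and 117 in control tumours 1, 2 and 3 (0.53 ± 0.14, adjusted p = 0.022). BAFF tumour 1 was the highest and BAFF tumour 2 close to the controls, and the gene no longer passed when BAFF tumour 1 or 3 or control tumour 1 or 3 was left out (largest adjusted p 0.0793). Pfkfb4, the related bifunctional enzyme gene, did not pass (31.3 ± 3.02 against 27.5 ± 2.82 scaled CPM; 0.18 ± 0.12, adjusted p = 0.334). Pdk1, a pyruvate dehydrogenase kinase gene and a well-known HIF-1 target, did not pass either (-0.19 ± 0.12, adjusted p = 0.331). On the deposited scale Pdk1, Aldoc and Adm had the opposite sign (0.06, 0.10 and 0.13) and did not pass there.

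**Figure D2:**
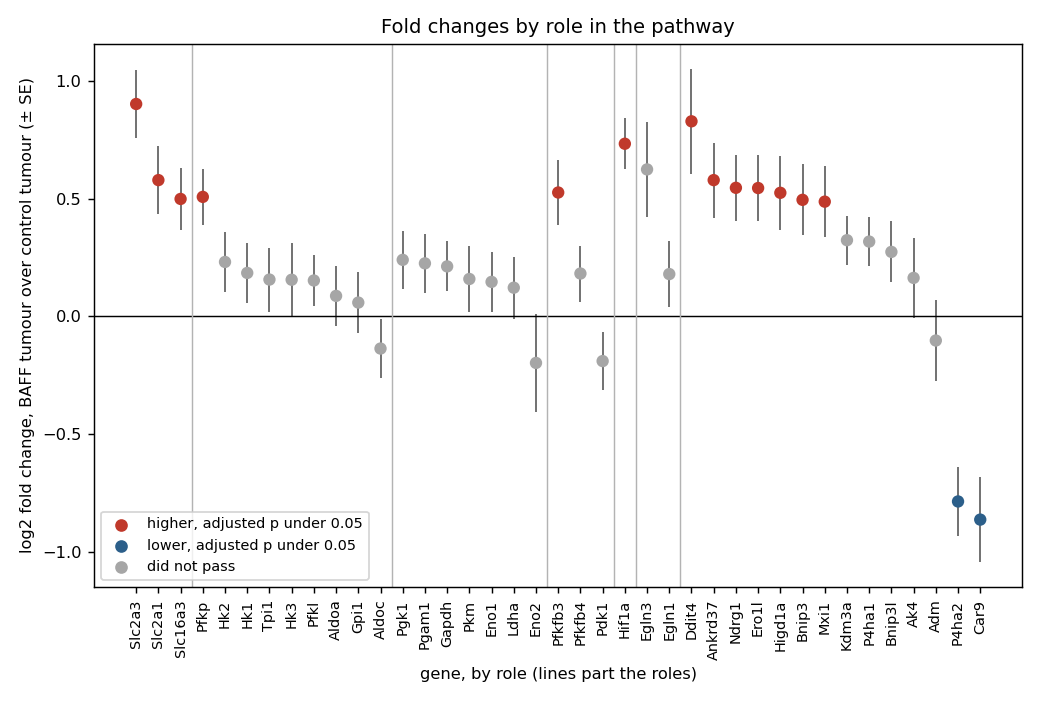
Log2 fold change of each tested member with its SE, by role; red and blue points passed the test as higher and lower, grey points did not pass. The transporters, Hif1a and the left part of the effectors lie well above most enzymes, the enzymes other than Pfkp run from -0.20 to 0.24, and P4ha2 and Car9 stand at -0.78 and -0.86.

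Hif1a itself rose. It stood at 358, 329 and 307 scaled CPM in BAFF tumours 1, 2 and 3 and 179.9, 199 and 219 in control tumours 1, 2 and 3, and the lowest BAFF tumour library was above the highest control by a wide margin (0.73 ± 0.11, adjusted p = 0.000794). Among the members this was the smallest adjusted p. The call held without each library in turn (adjusted p at most 0.00542), with control tumour 1 as the sole control (0.00684, its spread taken from the BAFF tumour libraries) and on the deposited scale (0.99, adjusted p = 0.0449), where it no longer passed when BAFF tumour 1, 2 or 3 or control tumour 2 was dropped (largest 0.394). GENCODE M21 places Gm15283 opposite a short stretch of its exons, at 1.18 and 0.678 scaled CPM.

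The EGLN hydroxylases are both sensors of oxygen and targets of HIF. Egln3 (PHD3) stood at 115, 64.4 and 67.7 scaled CPM in BAFF tumours 1, 2 and 3 and 43, 49.5 and 63.2 in control tumours 1, 2 and 3. The groups did not overlap, but BAFF tumour 1 was far above the rest, and the gene missed the threshold (0.62 ± 0.20, adjusted p = 0.0531). Egln1 (PHD2), the main hydroxylase of HIF-1 alpha, overlapped between groups (74.1 ± 11.1 against 65.4 ± 10.3 scaled CPM; 0.18 ± 0.14, adjusted p = 0.422). Of 10 further HIF regulators tested, 1 rose (10%) and 0 fell, where 7.18% of all tested genes were called higher and 9.91% lower. The 1 that rose was Vhl, the ubiquitin ligase subunit that removes hydroxylated HIF alpha (31.1 ± 5.24 against 21.8 ± 3.87 scaled CPM; 0.50 ± 0.15, adjusted p = 0.0398), and it no longer passed on the deposited scale (0.187) or when BAFF tumour 1 or 2 or control tumour 1 or 3 was left out (largest adjusted p 0.16). Siah2, a ligase gene acting on the hydroxylases, was at 0.35 ± 0.11, adjusted p = 0.0534, and Epas1, which encodes HIF-2 alpha, was scarce (1.8 ± 0.461 against 2.99 ± 0.808 scaled CPM; adjusted p = 0.135).

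Among the other HIF targets 7 rose, each by a log2 fold change between 0.49 and 0.83. Ddit4 (REDD1), a stress-induced brake on mTORC1, stood at 47.3, 27.6 and 34.2 scaled CPM in BAFF tumours 1, 2 and 3 and 13.4, 22.4 and 25 in control tumours 1, 2 and 3 (0.83 ± 0.22, adjusted p = 0.0248). BAFF tumour 2 was only just above control tumour 3. Ankrd37, an ankyrin repeat gene known as a direct HIF-1 target, stood at 24.8, 19.5 and 21 scaled CPM in BAFF tumours 1, 2 and 3 and 11.3, 17.4 and 14.5 in control tumours 1, 2 and 3 (0.58 ± 0.16, adjusted p = 0.0266). Ero1l, the endoplasmic reticulum oxidase that drives disulfide formation, stood at 542, 403 and 365 scaled CPM in BAFF tumours 1, 2 and 3 and 269, 302 and 315 in control tumours 1, 2 and 3 (0.54 ± 0.14, adjusted p = 0.0203), again without overlap. Ndrg1, a stress-responsive gene, stood at 305, 230.3 and 221 scaled CPM in BAFF tumours 1, 2 and 3 and 145, 183 and 187 in control tumours 1, 2 and 3 (0.55 ± 0.14, adjusted p = 0.019). These 4 genes missed the threshold in the fit without BAFF tumour 1 (adjusted p = 0.098, 0.108, 0.0701 and 0.0738 in that order) and without control tumour 1 (at most 0.0903). Ddit4 also missed it without BAFF tumour 3 (0.0554), and Ankrd37 without BAFF tumour 3 or control tumour 3 (largest 0.0548).

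Bnip3, Higd1a and Mxi1 passed closer to the threshold. Bnip3, a mitophagy receptor gene, stood at 186, 157 and 116 scaled CPM in BAFF tumours 1, 2 and 3 and 102, 117 and 100.4 in control tumours 1, 2 and 3 (0.49 ± 0.15, adjusted p = 0.0422). BAFF tumour 3 lay below control tumour 2, and the gene no longer passed when BAFF tumour 1 or 2 or control tumour 1, 2 or 3 was left out (largest adjusted p 0.162). Its relative Bnip3l (NIX) did not pass (69.5 ± 13.1 against 56.7 ± 3.42 scaled CPM; 0.27 ± 0.13, adjusted p = 0.179). Higd1a, a mitochondrial protein gene that helps cells through low oxygen, stood at 28.5, 30.1 and 22.7 scaled CPM in BAFF tumours 1, 2 and 3 and 15.4, 22.9 and 17.7 in control tumours 1, 2 and 3 (0.52 ± 0.16, adjusted p = 0.0381), overlapping at BAFF tumour 3 and control tumour 2, and no longer passed when BAFF tumour 1 or 2 or control tumour 1 or 3 was left out (largest adjusted p 0.15). Mxi1, a MYC antagonist gene, stood at 137, 103 and 89.4 scaled CPM in BAFF tumours 1, 2 and 3 and 66.3, 79.5 and 86.2 in control tumours 1, 2 and 3 (0.49 ± 0.15, adjusted p = 0.0448) and no longer passed when BAFF tumour 1 or 2 or control tumour 1 or 2 was left out (largest adjusted p 0.165). In GENCODE M21 the exons of Bnip3, Ankrd37 and Higd1a overlap genes on the opposite strand over more than a short stretch (22.3%, 22.7% and 22.5% of exon bases), so some of their reads are uncertain.

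Kdm3a, P4ha1, Ak4 and Adm did not pass. Kdm3a, a histone demethylase gene, and P4ha1, a collagen prolyl hydroxylase subunit gene, missed the threshold narrowly with no overlap between groups (0.32 ± 0.10, adjusted p = 0.053; 0.32 ± 0.10, adjusted p = 0.0537). P4ha1 was at 175 ± 18.8 against 139.8 ± 3.77 scaled CPM. Kdm3a stood at 99.9, 80.2 and 84.4 scaled CPM in BAFF tumours 1, 2 and 3 and 68.2, 70 and 71.7 in control tumours 1, 2 and 3. Ak4, a mitochondrial adenylate kinase gene, and Adm, the vasodilator peptide adrenomedullin, overlapped (0.16 ± 0.17, adjusted p = 0.567; -0.10 ± 0.17, adjusted p = 0.735).

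Car9 and P4ha2 went the other way. Car9, the membrane carbonic anhydrase IX known as a marker of hypoxic tumour cells, stood at 2.04, 2.32 and 1.57 scaled CPM in BAFF tumours 1, 2 and 3 and 4.22, 4.19 and 4.74 in control tumours 1, 2 and 3, and every BAFF tumour library was below each control (-0.86 ± 0.18, adjusted p = 0.00654). It was scarce, at an estimated 15 to 146 reads per library, taken from the step between low values. P4ha2, a catalytic subunit of collagen prolyl hydroxylase, stood at 7.27, 6.67 and 5.73 scaled CPM in BAFF tumours 1, 2 and 3 and 12.4, 12.9 and 10.7 in control tumours 1, 2 and 3 (-0.78 ± 0.15, adjusted p = 0.00356), from an estimated 34 to 429 reads. Both calls held without each library (adjusted p at most 0.0292 and 0.0175). On the deposited scale the log2 fold changes were -0.68 and -0.56 and did not pass (adjusted p = 0.221 and 0.369), and with control tumour 1 as the sole control Car9 did not pass (0.0685).

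Melanoma cell markers moved with them. Of 11 tested markers 10 fell and 0 rose, and the 12 together summed to 82.4 to 169.9 scaled CPM in BAFF tumours and 509 to 656 in controls, none being at 0 in any library. Dct, a melanin synthesis enzyme, was at 43.7 ± 13.5 against 217 ± 29.1 scaled CPM. Fibroblast markers summed to 20.8 to 31.9 in BAFF tumours and to 122, 30.1 and 31.6 in control tumours 1, 2 and 3. Only control tumour 1 thus lay outside the BAFF tumour range. Of these 4 markers 1 was lower, Col1a1, which no longer passed when BAFF tumour 2 or 3 or control tumour 1 was left out (largest limma adjusted p 0.159). Cell cycle genes fell (6 of 6, summing to 69.1 to 80.1 in BAFF tumours and 229 to 261 in controls), as did 3 of 6 macrophage markers (sums of 2014 to 2262 in BAFF tumours and 2907 to 3391 in controls). Of 6 neutrophil markers 2 rose, Csf3r and Retnlg, and the list summed to 124 to 164 in BAFF tumours and 63.4 to 109 in controls. Csf3r no longer passed when BAFF tumour 2 or 3 or control tumour 2 or 3 was left out (largest adjusted p 0.125), nor Retnlg when BAFF tumour 1 or 2 or control tumour 1 or 3 was left out (largest adjusted p 0.199). With no size factors 10 melanoma markers and 6 cell cycle genes fell, 0 macrophage and 0 fibroblast markers did, and 4 neutrophil markers rose. The part of these cells in the results on Car9, P4ha2 and the other members was not tested, and in sorted pools fewer cells of a type and less RNA per cell cannot be told apart.

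**Figure D3:**
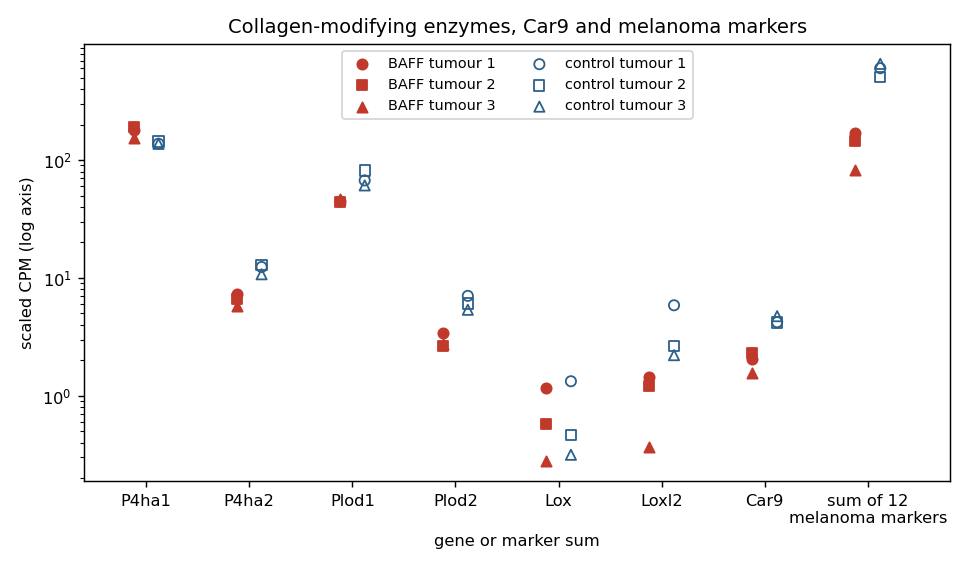
Scaled CPM on a log axis of the collagen-modifying enzyme genes among the members and further HIF targets, a grouping made after their values were seen, of Car9 and the summed 12 melanoma markers in each library; filled red symbols are BAFF tumour and open blue symbols control libraries. P4ha2, Plod1, Plod2, Loxl2, Car9 and the marker sum are lower in each BAFF tumour library than in any control, Lox overlaps and P4ha1 lies higher. On the deposited scale P4ha2, Plod1, Plod2 and Loxl2 overlap.

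Related genes that are not members were read from lists. Of 28 further HIF targets tested, 7 rose, 3 fell and 18 did not pass, with a median log2 fold change of 0.18, while on the deposited scale 4 rose and 1 fell. The share called higher was 25%, against 7.18% of all tested genes. The share called lower was 10.7%, near the 9.91% of all tested genes. The cystine exchanger gene Slc7a11 (1.44 ± 0.21, adjusted p = 0.000778) and the chemokine receptor gene Cxcr4 (366 ± 35 against 195 ± 23.2 scaled CPM; 0.91 ± 0.12, adjusted p = 0.000376) had the smallest p among those that rose, followed by Wsb1, a ubiquitin ligase adaptor gene (0.58 ± 0.11, adjusted p = 0.0038). Ppp1r3b, Vegfa, Jmjd6 and Bhlhe40 also rose, of which Jmjd6 and Bhlhe40 did not pass on the deposited scale (limma adjusted p = 0.231 and 0.133). The 3 that fell were Plod1, Plod2 and Loxl2. Lox, the lysyl oxidase gene of the same list, was below the filter and overlapped between groups (0.671 ± 0.451 against 0.703 ± 0.546 scaled CPM). Plod1, a lysyl hydroxylase gene, stood at 45.2, 43.9 and 46.3 scaled CPM in BAFF tumours 1, 2 and 3 and 67.3, 81.5 and 61 in control tumours 1, 2 and 3 (-0.61 ± 0.12, adjusted p = 0.00365). Plod2 and Loxl2, a lysyl oxidase gene, were scarcer (-0.86 ± 0.17, adjusted p = 0.00514; -1.15 ± 0.31, adjusted p = 0.0239), and Loxl2 no longer passed when BAFF tumour 2 or 3 or control tumour 1 was left out (largest adjusted p 0.0886). With no size factors Loxl2 passed (adjusted p = 0.0193), and Plod1, Plod2 and Wsb1 did not (0.588, 0.238 and 0.117). Ppp1r3b, Vegfa, Jmjd6, Bhlhe40, Plod2, Lox and Loxl2 were named after their values were seen.

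Of 32 tested genes of linked sugar metabolism, 2 rose, 1 fell and 29 did not pass, shares of 6.25% and 3.12% that lie below those of all tested genes. None of the 3 passed on the deposited scale (adjusted p = 0.0516 for Slc16a1, 0.189 for Gpd2 and 0.0691 for Gpd1, in limma). Slc16a1, which encodes the monocarboxylate transporter MCT1, rose (42.6 ± 4.56 against 26.2 ± 6.91 scaled CPM; 0.71 ± 0.17, adjusted p = 0.0126). Gpd2, the mitochondrial glycerol phosphate dehydrogenase gene, rose too (0.49 ± 0.13, adjusted p = 0.0262), and Gpd1, its cytosolic partner in the glycerol phosphate shuttle, fell (1.47 ± 0.327 against 4.07 ± 0.825 scaled CPM; -1.03 ± 0.20, adjusted p = 0.00417). Taldo1, transaldolase of the pentose phosphate pathway, was at 0.30 ± 0.10, adjusted p = 0.0703. Gpd1 passed in each fit without 1 library, whereas Slc16a1 no longer passed when BAFF tumour 2 was left out (largest adjusted p 0.0563) and Gpd2 no longer passed when BAFF tumour 1 or 3 or control tumour 3 was left out (largest adjusted p 0.103).

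Ratios within a library do not depend on library scale. Each member was set against the geometric mean of the 16 glycolytic enzyme genes of its own library, a choice made after seeing the data. On this log2 ratio Hif1a ran from 0.68 to 0.73 in BAFF tumours and -0.01 to 0.22 in controls, a difference of means of 0.60. Slc2a3 ran from -2.68 to -2.39 in BAFF tumours and -3.39 to -3.34 in controls (difference 0.80), Slc2a1 from 0.60 to 0.82 in BAFF tumours and 0.12 to 0.33 in controls (0.44) and Slc16a3 from 0.48 to 0.58 in BAFF tumours and 0.06 to 0.26 in controls (0.36). None of these 4 overlapped. Of the 13 members that rose, 12 were without overlap in this ratio, Pfkfb3 being the exception, and of the 24 tested members that did not pass 0 lay wholly higher. The 13 had been called from the same libraries, and 11 of them already did not overlap on scaled CPM. Of the 24 that did not pass, 15 are themselves among the 16 enzymes of the divisor. These counts therefore add no separate evidence, and the share of all tested genes without overlap in this ratio was not computed. Pfkp, itself 1 of the 16, ran from 0.58 to 0.81 in BAFF tumours and 0.18 to 0.39 in controls. The ratio of Ldha differed by -0.01 and that of Pkm by 0.02. Car9 and P4ha2 differed by -1.30 and -1.01, and Pdk1 and Adm lay wholly lower by this measure (differences -0.33 and -0.25). A ratio shows unequal change of 2 quantities and not that either stayed constant.

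**Figure D4:**
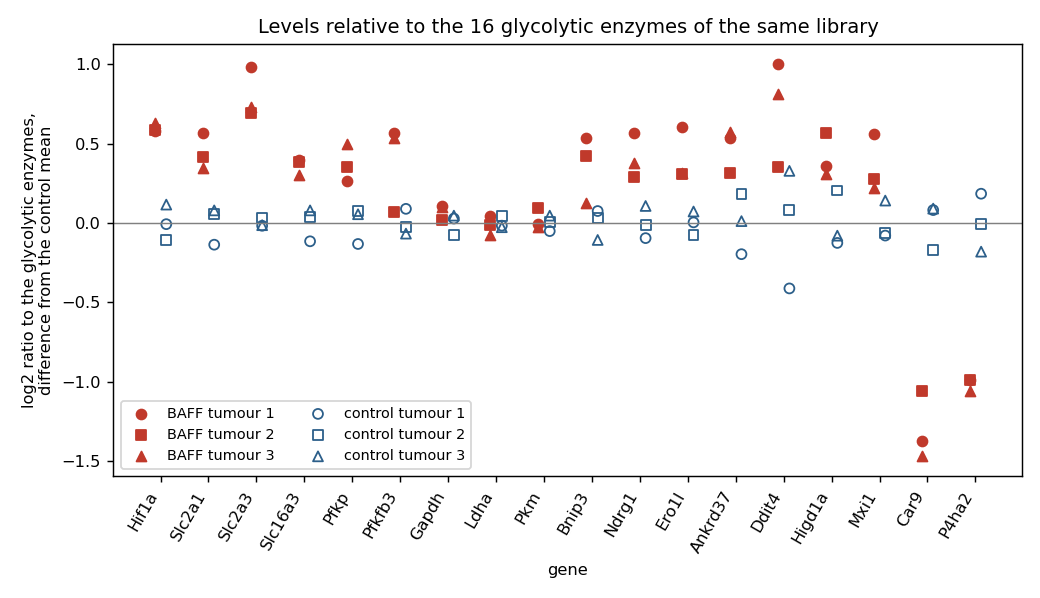
Log2 ratio of each gene to the geometric mean of the 16 glycolytic enzymes of the same library, shown as the difference from the mean of the 3 control libraries; filled red symbols are BAFF tumour and open blue symbols control libraries. Gapdh, Ldha and Pkm lie near 0 in both groups, Hif1a and the transporters lie above the controls, and Car9 and P4ha2 lie below.

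Most pairs of related genes that separated below hold a member already called, so their separation partly restates those calls. No share over other gene pairs was computed, while of single tested genes 17.3% lay wholly higher and 17.8% wholly lower. Related genes that share a role differed in 7 of 10 ratios without overlap between groups. The exact two-sided permutation test can give no p below 0.1 with 3 against 3 libraries, and these 7 reached it (0.143 adjusted over the 10 ratios), so none could pass. The ratio of Pfkp to Pfkl CPM was 1.97, 1.92 and 2.13 in BAFF tumours 1, 2 and 3 and 1.47, 1.6 and 1.63 in control tumours 1, 2 and 3. Per kilobase of exon (GENCODE M21, union of exons), Pfkp made 49.9% ± 1.41 of both transcripts in BAFF tumours and 43.8% ± 1.31 in controls (SD, n = 3). The level of these shares depends on the lengths used, 13401 bases for Pfkp and 6675 for Pfkl. The ratio of Egln3 to Egln1 was 1.34, 1.01 and 0.931 in BAFF tumours 1, 2 and 3 and 0.803, 0.703 and 0.877 in control tumours 1, 2 and 3. P4ha2 to P4ha1 had the largest shift, with log2 ratios differing by -1.19. Slc2a3 to Slc2a1 differed by 0.36, Pfkfb4 to Pfkfb3 by -0.34, Bnip3l to Bnip3 by -0.22 and Eno2 to Eno1 by -0.46. The aldolase ratio and both hexokinase ratios overlapped (p = 0.2, 0.6 and 0.9, exact permutation test).

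Per kilobase of exon, GLUT1 transcripts far outnumbered those of GLUT3, as Slc2a3 made 4.79% ± 0.23 of the pair in BAFF tumours and 3.78% ± 0.277 in controls. Among hexokinases, Hk3, the form of myeloid cells, held 54% ± 8.05 and 55.2% ± 2.75, Hk2 held 35.1% ± 6.15 and 34% ± 1.51, and Hk1 held the rest. The order Hk3, Hk2, Hk1 was the same in each library, though Hk3 and Hk2 were close in BAFF tumour 1 (45.4% and 41.4%). Over the 6 libraries Aldoa made 97.7% to 98.4% of the aldolase pair and Eno1 99.2% to 99.6% of the enolase pair. Exon length over all annotated isoforms can exceed that of the transcripts present, which would shift these shares.

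Averaged by role, as the difference from the mean of the 6 libraries on the log2(scaled CPM + 1) scale, the transporters ran from 0.12 to 0.57 in BAFF tumours and -0.55 to -0.18 in controls, without overlap. The 16 glycolytic enzymes ran from -0.06 to 0.19 in BAFF tumours and -0.21 to 0.04 in controls and the 14 tested effectors from -0.07 to 0.34 in BAFF tumours and -0.26 to 0.01 in controls, and both overlapped. In all 3 of these groups BAFF tumour 1 was the highest and control tumour 1 the lowest library on this scale, and BAFF tumour 3 was the lowest BAFF tumour library. Before scaling, control tumour 3 was the lowest library for each of the 3 transporters. These averages describe the members chosen and carry no test.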

How the data were processed

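Libraries were made from total RNA with a TruSeq RNA v2 kit and sequenced on an Illumina HiSeq instrument, per the labels' protocols. Partek, STAR (2.4.1d) and Bowtie2 (2.2.5) are named without roles, per the submitters' processing notes; no build, annotation or counting rule is given in the sources used here. The authors deposited 1 table of CPM, a unit read from its values: 84.7% to 86.2% of low values lay within 0.02 of whole multiples of 1 step per library. Reads were therefore not recovered and no count model was used. A column with a misspelt name was matched to control tumour 2.

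CPM were divided by median-of-ratios size factors over the 12824 genes that averaged at least 1 CPM and tested with limma-trend (limma 3.58.1, R 4.3.3) on log2(scaled CPM + 1), which understates fold changes of low genes, with Benjamini-Hochberg adjustment. TMM (trimmed mean of M values) factors were computed on the CPM as an alternative. Errors are SD over 3 libraries for levels and SE for fold changes. The fit was tested on simulated data. Alternatives were the deposited scale, TMM, other filters, another pseudocount, a replicate block, no intensity trend and leaving out libraries. The members, companion lists, scale and tests were chosen with earlier results of these data known. Members past the threshold, and the most abundant of each role, have every library's value, and paralogue pairs have both means; of each companion list up to 4 genes with the smallest p are named. Marker lists without a result in the text were T and NK cells (0 of 3 changed), B cells (0 tested), dendritic cells (1 of 5 higher), endothelium (2 of 3 higher) and red cells (0 of 2 changed).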

Additional observations from a re-analysis of the deposited data

How the results depend on the processing

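On the deposited scale 681 genes, 1 glycolysis gene and 1 other HIF target passed, with medians of 0.42 and 0.66; with the replicate block as well, 608, 1 and 1 (medians 0.42 and 0.66). Leaving out 1 library gave 1349 to 1830 genes, 2 to 6 glycolysis genes and 2 to 9 other HIF targets, with medians of 0.086 to 0.23 and 0.31 to 0.51 (without BAFF tumour 1 or control tumour 1 the 2 targets were Car9 and P4ha2, both lower), and on the deposited scale 170 to 5149, 0 to 13 and 0 to 12, with medians of 0.23 to 0.58 and 0.43 to 0.83; the highest 3 counts there came without control tumour 1. A filter at a mean of 5 CPM left 1367 genes and 5 other HIF targets, fewer genes, and not Car9, being tested. Without the intensity trend 2 glycolysis genes (Slc2a3 and Pfkp) and 2 other HIF targets (Car9 and P4ha2, both lower) passed, and none of the 7 targets that rose did (limma adjusted p 0.0582 to 0.114), and with control tumours 2 and 3 left out 1100 genes and 5 other HIF targets. The cause of these shifts was not tested. TMM factors, a pseudocount of 0.1 and no filter kept 14, 15 and 15 of the 15 called members. The replicate block kept 14 of 15 (Mxi1 missed, adjusted p = 0.0758) and gave 1940 genes. Libraries with the same number did not deviate together (correlations -0.05 to 0.05). These values show no shared effect of the number, but they cannot tell whether libraries were paired at harvest or sorting. No called member changed direction under any alternative. Depth limits Car12, and Eno2 and Car9 are the tested members with the fewest estimated reads. The settings on the deposited scale without 1 library, with the block, and without control tumours 2 and 3 were chosen after seeing the data.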
